A study of Sus scrofa with 20 samples.

Results

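The ileum of piglets kept with their sow was compared between 21 and 35 days of age. The comparison used 7 of the 20 arrays of the series, chosen by deposited label: 4 labelled S21D and 3 labelled S35D. Each array was hybridised with RNA from ileal mucosa, scraped from the gut wall of 1 crossbred piglet (Landrace × Large white × Duroc). Suckling piglets had no access to the diet of the sow and took milk only. Arrays of 3 other groups are given beside them: S28D suckling piglets (n = 4) and piglets weaned onto a commercial diet at 21 days of age and killed at 28 days (21W28D, n = 3) or 35 days (21W35D, n = 3). Arrays of 14-day-old suckling piglets (S14D) also entered the estimate of the spread and are not shown. Which litter each piglet came from is not stated in the labels, so that littermates could not be modelled.

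The labels S35D and 21W28D may be exchanged. If they are, the 3 arrays called S35D here came from weaned piglets of 28 days, and the comparison is one of weaning as well as of age. Over 12267 probe sets with a mean over 5 log2 units, the 3 arrays labelled S35D correlated with the S21D mean at r = 0.892 to 0.958 and the 3 labelled 21W28D at 0.953 to 0.980. All 3 arrays labelled S35D were closer to the 21W35D mean than to the S28D mean, and 2 of the 3 labelled 21W28D were closer to the S28D mean. The 21W35D mean includes replicate 2, which correlated at 0.874 with the rest of its group and at 0.936 with the S35D-labelled mean. Replicates 1 and 3 of 21W35D were closer to the S28D mean (0.978 and 0.971) than to the S35D-labelled mean (0.956 and 0.968). The check was not repeated without replicate 2. Groups are therefore called by their labels throughout. For some of the genes, not all, values of the arrays labelled 21W28D stand beside those of the arrays labelled S35D. Named probe sets that change direction with the labels exchanged are given at the end.

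A few arrays stood apart in a set of genes. Replicate 1 of the arrays labelled S35D was low in B cell genes (mean of 8 genes 6.42 log2 units, against 8.55 and 8.57 in replicates 2 and 3), and replicate 3 was high in smooth muscle genes (mean of 15 genes 9.68, against 7.32 and 6.93). Replicate 2 of 21W35D, which is no part of the comparison but shares in the estimate of the spread, was the lowest of the arrays shown in B cell genes at 5.58. Group results that rest on these arrays are given with and without them, while many single genes are given from the full fit only. Enterocyte markers were high in every array, at 14.03 to 14.69 in S21D and 14.57 to 14.73 in arrays labelled S35D (mean of 6 genes), and FABP6, the ileal bile acid-binding protein, was at 15.82 ± 0.23 (SD, n = 4) and 15.98 ± 0.10 (SD, n = 3). The B cell marker measured here was CD79B. In mucosa of mixed cells, fewer cells of a type and less RNA per cell cannot be told apart.

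The ileum of the young pig holds a long continuous Peyer's patch, a lymphoid organ in which B cells multiply in follicles under an epithelium that samples the gut contents. The villi around it absorb bile acids and fat, and they meet food compounds and microbes. Interferons are cytokines released on sensing of viral or microbial nucleic acid. They bind receptors on most cells and switch on a common set of antiviral genes through the STAT and IRF transcription factors. Mature enterocytes also carry enzymes that oxidise and conjugate foreign compounds, and the epithelium secretes lectins, mucins and antibody onto its surface.

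Of 23999 probe sets tested with limma, 307 (1.28%) were higher and 75 (0.313%) were lower in arrays labelled S35D, 382 (1.59%) in all. These differed by 2-fold or more with a Benjamini-Hochberg adjusted p under 0.05, and probe sets that passed this rule are named called. A gene symbol was known for 174 of the called higher and 26 of the called lower. In 379 of the 382 called probe sets, the arrays labelled S35D and the S21D arrays did not overlap. Of all probe sets, 9.85% lay wholly above and 13.8% wholly below S21D. The rule for calling itself favours such separation. On the adjusted p alone, the rule used below for single genes and list members, 541 probe sets (2.25%) were higher and 316 (1.32%) were lower. Among the 6765 named genes, each taken at its brightest probe set, the shares were 4.05% and 1.24%. The median difference over all probe sets was 0.0. Without replicate 1 of the arrays labelled S35D, 37 were called higher and 6 lower. Without replicate 2 of 21W35D, 446 were called higher and 225 lower, and on the adjusted p alone 3.58% and 3.23% passed. Leaving it out was chosen after seeing the data. With the arrays labelled 21W28D in place of those labelled S35D, none was called, and 606 probe sets had an unadjusted p under 0.05 against 4739 by the deposited labels.

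**Figure D1:**
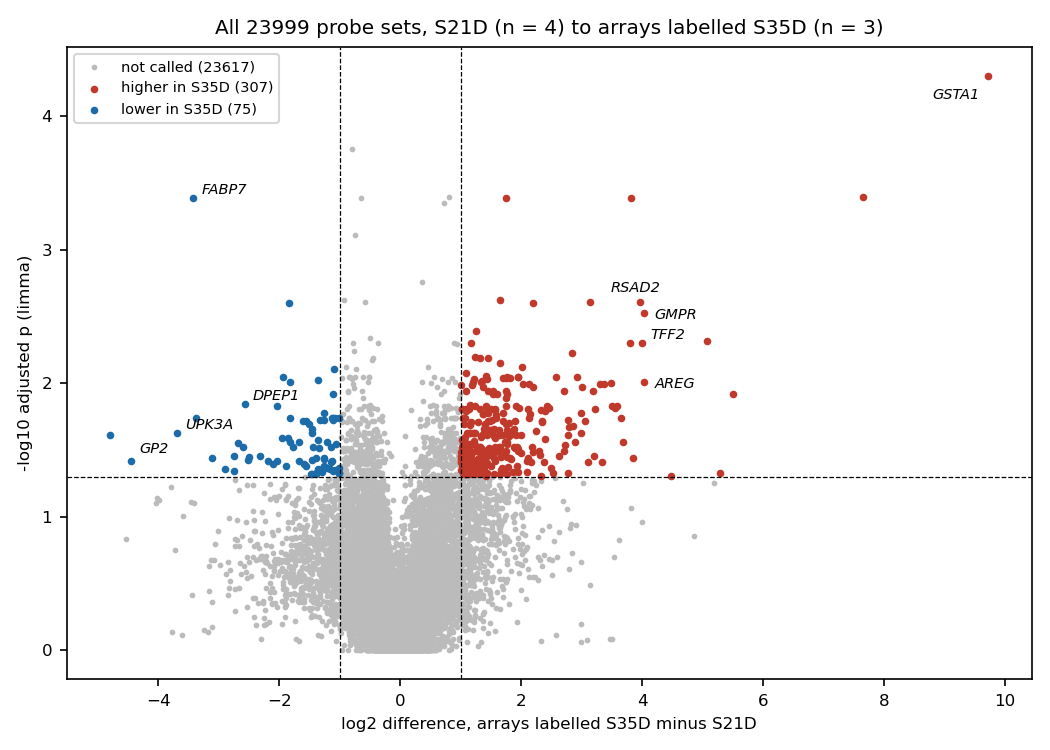
Difference of each of 23999 probe sets between arrays labelled S35D (n = 3) and S21D (n = 4) on the horizontal axis (log2), against the −log10 of its adjusted p from limma on the vertical axis. Dashed lines mark an adjusted p of 0.05 and a 2-fold difference. The 307 called higher outnumber the 75 called lower, and a probe set of GSTA1 stands far from the rest at a difference of 9.72.

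Interferon-induced genes were higher as a group in arrays labelled S35D. Of 26 genes of this list with a named probe set, 20 passed the test as higher and 0 as lower, where 4.05% of named genes were higher. All 26 differences were above 0, and in 23 genes every array labelled S35D lay above every S21D array, against 9.85% of all probe sets. The median difference over the list was 2.23 log2 units. ISG15, a ubiquitin-like protein that is attached to viral and host proteins, was at 10.24, 10.97, 11.57 and 11.01 in the S21D arrays and at 14.89, 13.82 and 14.23 in those labelled S35D. The lowest of the later arrays was thus more than 2 units above the highest of the earlier ones. The difference was 3.36 (standard error 0.57, adjusted p = 0.01 from limma). RSAD2, the antiviral enzyme viperin, had the largest difference of the list. It was at 10.16, 10.61, 10.91 and 10.99 in S21D and at 15.15, 14.24 and 14.49 in arrays labelled S35D, a rise of 3.96 (standard error 0.51, adjusted p = 0.00247 from limma).

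Sensors, regulators and effectors of the response were among the genes that rose. Among sensors of nucleic acid, DDX58, which encodes the RNA sensor RIG-I, rose from 8.39 ± 0.47 (SD, n = 4) to 11.69 ± 0.59 (SD, n = 3), and ZBP1, a sensor of Z-form nucleic acid, from 7.88 ± 0.54 to 11.07 ± 0.59. Of the transcription factors, IRF7, the amplifier of the type I interferon response, rose by 2.83 (adjusted p = 0.00593 from limma). IRF9 and STAT2, transcription factors of the interferon response, differed by 0.99 and 0.28 and did not pass (adjusted p = 0.0888 and 0.499 from limma). Among effectors, MX2 and MX1, GTPases that block viral replication, rose by 3.56 and 1.96. IFIT2, IFIT3 and IFIT1, which bind foreign RNA and hold up its translation, rose by 3.48, 2.93 and 2.44. OAS1, which makes the activator of RNase L, rose by 2.46, and EIF2AK2, the kinase PKR, by 1.03. XAF1, a promoter of apoptosis, rose by 3.22. USP18, the protease that removes ISG15 and damps the interferon receptor, rose from 10.31, 10.88, 10.74 and 10.26 to 12.95, 12.17 and 12.92, a difference of 2.14 (adjusted p = 0.0102 from limma). These were higher in every array labelled S35D than in any S21D array. No probe set is annotated to IFI6 here. IFIT2 and DDX58 each have a further probe set with a larger rise, of 5.51 and 5.07. That of IFIT2 lay near the floor of the scale in S21D piglets (2.08 to 2.34), so that its size rests on the floor.

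The rise was not seen in the arrays labelled 21W28D. ISG15 was at 9.22, 11.37 and 9.65 there, RSAD2 at 9.59, 10.49 and 9.35, and the list median of these arrays against S21D was -0.19 with 0 of 26 members past the test. Compared directly, 19 of 26 members were higher in arrays labelled S35D than in those labelled 21W28D (median 2.60), where 3.84% of all probe sets differed in either direction. The 21W35D arrays were near those labelled S35D, with ISG15 at 13.47, 13.61 and 13.92, and 0 of 26 members passed between them (median 0.47). Against S21D, 3 of 26 were higher in 21W35D (median 1.62), where 0.296% of probe sets passed. Among S28D piglets ISG15 was at 12.10 ± 1.11 (SD, n = 4), and the mean level of the list ran from 9.15 to 10.88 between piglets, against 9.10 to 9.61 at S21D and 11.11 to 11.81 in arrays labelled S35D. The group thus had its widest range at 28 days. Without replicate 1 of the arrays labelled S35D, 3 of the 26 members passed, with a median of 2.07, against 13 to 20 when another of the 7 arrays was left out. A named probe set of RSAD2, of IFIT1 and of DDX58 passed in each of these fits. Members with no probe set under the naming rule were not followed through all of them.

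**Figure D2:**
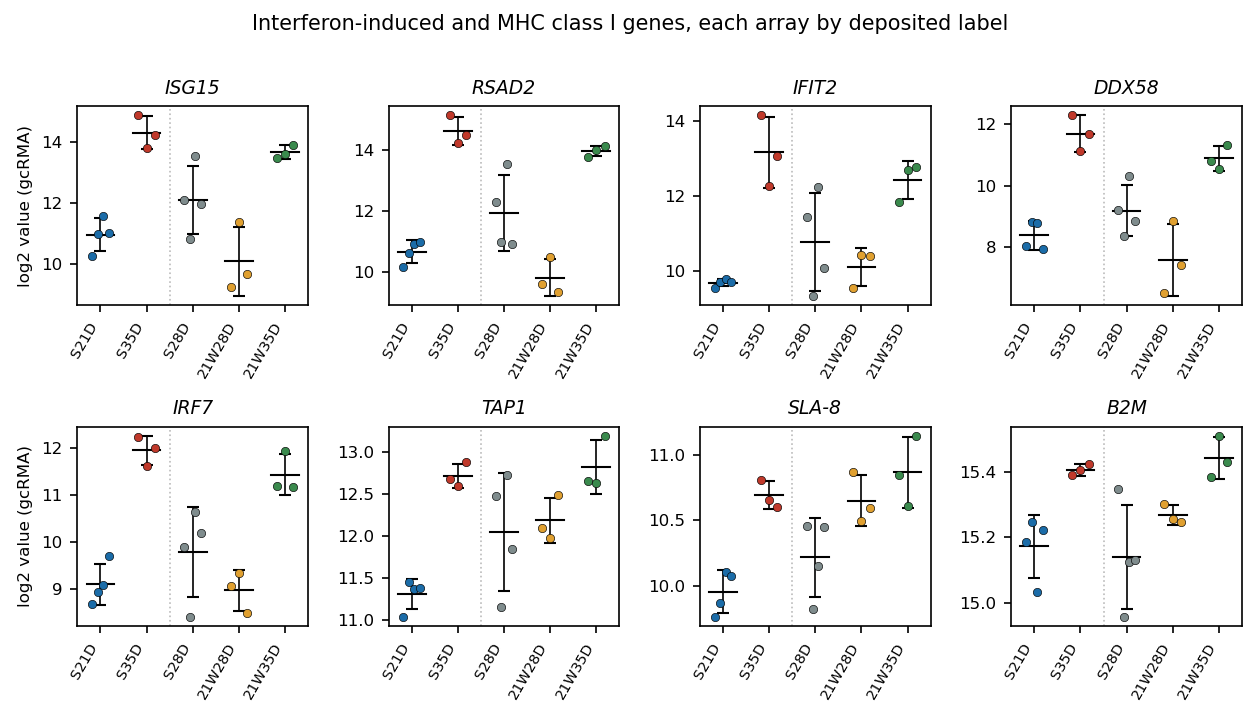
Log2 value of each array for 6 interferon-induced genes and the MHC class I genes SLA-8 and B2M, by deposited label. Points are arrays, horizontal lines are group means and bars are 1 SD. Each panel has its own vertical scale. Arrays labelled 21W28D lie within or below the S21D range in ISG15 and RSAD2, and at the S21D level in IRF7. In these genes the arrays labelled S35D and 21W35D lie above the S21D level.

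MHC class I and peptide loading genes, many of which interferon induces, lay above S21D with smaller differences. All 14 measured genes had a difference above 0 (median 0.45, against 0.0 over all named genes). Of the 14, 3 passed the test, where 4.05% of all named genes were higher. TAP1, which carries peptides into the endoplasmic reticulum, rose from 11.31 ± 0.18 (SD, n = 4) to 12.72 ± 0.14 (SD, n = 3), by 1.41 (adjusted p = 0.0203 from limma). PSME2, a proteasome activator subunit, rose by 0.98 and SLA-8, a class I heavy chain gene, by 0.74. B2M, the invariant light chain, was at 15.17 ± 0.10 and 15.41 ± 0.02, near the top of the scale, and its difference of 0.23 did not pass (adjusted p = 0.184 from limma). Class I heavy chain genes are close in sequence, and their probe sets may share signal. Unlike the interferon-induced genes, SLA-8 was as high in the arrays labelled 21W28D (10.87, 10.49 and 10.59) as in those labelled S35D (10.81, 10.66 and 10.61). No member of this list passed when replicate 1 or 3 of the arrays labelled S35D, or replicate 1 or 4 of S21D, was left out.

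The single largest change was in GSTA1, an alpha class glutathione transferase that conjugates lipid peroxidation products and food electrophiles. Its level was 4.11, 5.18, 5.83 and 4.58 in S21D piglets and 14.20, 14.86 and 14.88 in arrays labelled S35D. The groups were separated by more than 8 log2 units, from a low level to one of the highest on the array. The difference was 9.72 (standard error 0.74, adjusted p = 4.98e-05 from limma), an 844-fold change, and it passed whichever array was left out. A second probe set rose by 7.64, and the remaining one lay at the floor in both groups. GSTA1 had risen already in S28D piglets, at 11.55, 9.65, 11.39 and 13.42, a difference from S21D of 6.58 (standard error 0.69, adjusted p = 0.00292 from limma). It was the only probe set past the test between S21D and S28D, where 0.00417% passed. The arrays labelled 21W28D were at 11.03, 8.33 and 9.63 and those of 21W35D at 11.92, 12.53 and 11.74. The arrays labelled 21W28D thus lay above all of S21D, by 4.74, although this did not pass (adjusted p = 0.0582 from limma). They were lower than those labelled S35D (difference 4.98, adjusted p = 0.0061 from limma).

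Few genes of xenobiotic metabolism passed, and they went both ways. Of 35 measured, GSTA1 included, 3 were higher and 1 was lower, where 4.05% and 1.24% of all named genes were. The median difference was 0.0. Of the 35, 25 reached 4 log2 units in any of the 7 arrays. GSTO1, an omega class glutathione transferase, rose from 11.76 ± 0.36 (SD, n = 4) to 13.51 ± 0.27 (SD, n = 3), and MGST3, a membrane-bound member, by 0.95. UGT2B31, which joins glucuronic acid to steroids and phenols, fell in both of its probe sets. The brighter was at 9.81, 11.30, 10.10 and 10.16 in S21D and at 8.02, 8.42 and 6.54 in arrays labelled S35D, a difference of -2.69 (standard error 0.59, adjusted p = 0.0279 from limma), and the other differed by -3.38. In arrays labelled 21W28D it was at 10.36, 10.29 and 9.54. ABCC2, the apical export pump for conjugates, was at 2.25 to 3.11 in S21D, near the floor, and at 6.33, 5.69 and 5.68 in arrays labelled S35D (difference 3.10, adjusted p = 0.0391 from limma). SULT1E1, the estrogen sulfotransferase, was at 12.45 to 13.42 in S21D and at 5.80, 12.71 and 11.26 in arrays labelled S35D. Its low value was that of replicate 1, the groups overlapped, and the difference did not pass (adjusted p = 0.209 from limma). DPEP1, a brush border dipeptidase that cleaves glutathione products and leukotriene D4, fell from 11.59, 11.96, 12.15 and 12.51 to 8.37, 10.02 and 10.05 (difference -2.57, adjusted p = 0.0142 from limma). The arrays labelled 21W28D were at the S21D level for it, at 12.60, 11.31 and 11.69.

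Of the genes of surface defence, 2 of 16 measured rose and none fell, where 4.05% of all named genes were higher and 1.24% lower. The list median was 0.04. Of the 16, 10 reached 4 log2 units in any of the 7 arrays. SFTPD, surfactant protein D, a collectin that binds sugars of microbes, was at 5.78, 6.44, 5.33 and 5.68 in S21D and at 10.01, 9.03 and 9.81 in arrays labelled S35D in its less bright probe set (difference 3.81, standard error 0.39, and an adjusted p of 0.000412 by limma). The brightest SFTPD probe set rose by 3.69. In the less bright probe set the arrays labelled S35D lay above those of the other groups shown. This less bright probe set was at 6.73, 5.62 and 5.33 in those labelled 21W28D, 5.73, 6.54 and 6.23 in 21W35D, and 5.59 ± 0.27 (SD, n = 4) in S28D piglets. Between arrays labelled S35D and 21W35D it differed by 3.45 (adjusted p = 0.0052 from limma), where 11 of 23999 probe sets (0.0458%) passed. The brightest probe set differed by 3.40 there and did not pass (adjusted p = 0.358 from limma). DMBT1, a secreted scavenger receptor that binds surfactant protein D and bacteria, rose from 10.25, 10.23, 8.28 and 10.10 to 13.51, 12.38 and 13.28 (difference 3.34, adjusted p = 0.0391 from limma). In arrays labelled 21W28D it was at 8.48, 8.01 and 7.08, lower than in those labelled S35D by 5.20 (adjusted p = 0.0083 from limma). PIGR, which carries secretory antibody across the epithelium, and SLPI, a protease inhibitor, had differences of 1.53 and 2.31 that did not pass (adjusted p = 0.0737 and 0.211 from limma). Of 16 complement genes, 1 was higher (C5, by 2.77) and 1 lower (CFD, complement factor D, by 0.82 on the log2 scale). With the shares of all named genes at 4.05% and 1.24%, such counts say little about complement as a group.

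TFF2, a trefoil peptide of gastric and duodenal mucus that aids repair of the epithelium, rose from 7.12, 7.65, 7.13 and 7.95 to 11.83, 11.53 and 11.02. This difference of 4.00 (standard error 0.57, adjusted p = 0.00503 from limma) passed whichever array was left out. It was the only one of 7 measured goblet cell genes to pass, and TFF3, the trefoil peptide of intestinal goblet cells, differed by 0.73 (adjusted p = 0.219 from limma). The mean of the goblet markers FCGBP and TFF3 was 11.34 to 12.19 in S21D and 12.54 to 12.71 in arrays labelled S35D, and its part in the rise of TFF2 was not tested. AREG, amphiregulin, a ligand of the epidermal growth factor receptor, rose from 5.93, 6.0, 5.56 and 5.07 to 11.38, 8.47 and 9.15 (difference 4.03, adjusted p = 0.00973 from limma). Values of 21W35D were 9.50, 9.50 and 9.44 and those of arrays labelled 21W28D 5.07, 4.37 and 5.18, so that AREG split the 5 groups shown into a high and a low set with no value between. Of 17 immediate early and growth factor genes, FOS, DUSP6 and ZFP36 also rose, by 1.69, 1.24 and 0.74. These are an AP-1 subunit, a phosphatase of the ERK kinases and an mRNA decay factor. EGR1 and IER3, induced by the same kinase pathway, had differences of -0.37 and -1.08 that did not pass. GMPR, which converts GMP to IMP, rose by 4.03 (adjusted p = 0.00295 from limma), and LOC780435, a gene known by its locus name only, by 3.58.

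**Figure D3:**
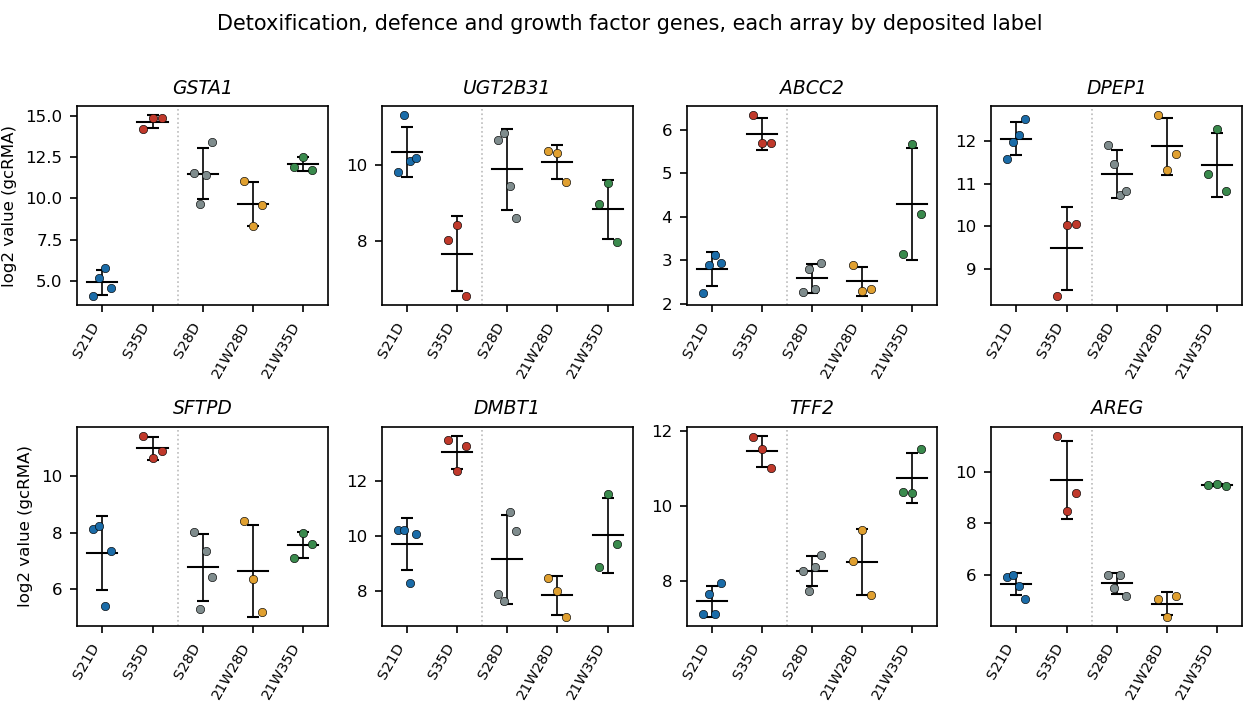
Log2 value of each array for genes of detoxification, surface defence, mucus and growth control, by deposited label (points, arrays; lines, group means; bars, 1 SD; each panel with its own scale). GSTA1 is lowest in S21D and highest in arrays labelled S35D, the brightest SFTPD probe set is highest in arrays labelled S35D, and AREG is high in arrays labelled S35D and 21W35D.

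Cholesterol synthesis genes were higher together. Of 14 measured, 7 rose and none fell, where 4.05% of all named genes were higher. The median difference was 1.33, and in 11 of 14 every array labelled S35D lay above every S21D array (9.85% of all probe sets did). The mean level of the list was 8.70 to 9.28 in S21D, 10.04 to 10.14 in arrays labelled S35D and 8.91 to 9.34 in those labelled 21W28D. MSMO1, a sterol demethylase, rose from 11.66 ± 0.60 (SD, n = 4) to 13.61 ± 0.26 (SD, n = 3). SC5D, CYP51, HSD17B7 and NSDHL, which modify the sterol ring, rose by 1.51, 1.49, 1.40 and 1.36. FDFT1, squalene synthase, rose by 1.15, and INSIG1, a membrane protein that restrains the pathway, by 1.68. TM7SF2, a late sterol reductase, differed by 0.29 and did not pass. HMGCS1 and SQLE, the condensing enzyme and squalene epoxidase, differed by 1.31 and 1.44 without passing (adjusted p = 0.056 and 0.075 from limma). SREBF2, the transcription factor of the pathway, was at the same level in both groups (difference 0.02). None of the 14 passed when replicate 1 or 3 of the arrays labelled S35D was left out (medians 1.24 and 1.38), nor replicate 1 or 4 of S21D (medians 1.28 and 1.23). Between arrays labelled S35D and 21W28D, 4 of 14 were higher (median 1.22).

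Few genes of fat handling and mitochondria passed the test, where 4.05% of all named genes were higher. In the fat absorption list differences ran from -4.54 to 3.54 and the median was 0.49. SAR1B, a GTPase that moves chylomicrons out of the endoplasmic reticulum, rose by 0.74, the only one of 18 fat absorption genes to pass. FABP1, the liver type fatty acid-binding protein, was at 12.78 to 14.29 in S21D and at 15.76, 15.29 and 15.56 in arrays labelled S35D. MTTP, which loads lipid onto apolipoprotein B, was at 10.11 to 11.31 and at 12.32, 12.20 and 12.24. Neither passed (adjusted p = 0.174 and 0.0743 from limma), although the groups did not overlap. In β-oxidation, ETFA, an electron carrier subunit, and HADHB, a subunit of the trifunctional protein, rose by 0.79 and 0.67, 2 of 21 measured. In oxidative phosphorylation 4 of 35 rose (NDUFC2, NDUFV2, NDUFB3 and ATP5G3, by 0.25 to 0.38), 31 differences were above 0 and the median was 0.24. The glycolytic enzymes PKM and TPI1 fell by 0.53 and 0.62 on the log2 scale, and PRDX2, a peroxiredoxin, by 0.52, while PRDX1, a near relative, rose by 0.34. ARG2, the mitochondrial arginase, rose from 4.25 ± 0.57 (SD, n = 4) to 7.03 ± 1.66 (SD, n = 3), and AQP1, a water channel, from 6.61 ± 0.07 to 9.15 ± 0.64.

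Structural genes of the epithelium all had differences above 0 (17 of 17, median 0.62), in 11 of them with no overlap between groups, against 9.85% of all probe sets. Only TJP1 passed, and it lay near the floor (2.52 ± 0.01 and 2.90 ± 0.34). CLDN4, a tight junction claudin, and KRT19 and KRT18, keratins of simple epithelium, differed by 1.05, 0.95 and 0.93 without passing. The mean level of the list was 11.08 to 11.49 in S21D, 11.76 to 12.09 in arrays labelled S35D and 10.93 to 11.63 in those labelled 21W28D. Epithelial genes thus moved with the rises given above, by less than those of GSTA1, TFF2 or the interferon-induced genes, and their part in them was not tested.

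B cell genes pointed the other way. All 8 measured were lower in every array labelled S35D than in any S21D array, where 13.8% of all probe sets were, with a median difference of -2.40. FAM129C, a gene expressed in B cells, was the one that passed. It fell from 5.66, 6.18, 7.16 and 6.01 to 3.51, 3.45 and 4.03 (difference -2.59, adjusted p = 0.0301 from limma). CD79B, the signalling chain of the B cell receptor, was at 11.79, 11.30, 12.07 and 11.87 in S21D and at 6.88, 11.10 and 10.66 in arrays labelled S35D, and at 11.17, 11.88 and 12.17 in those labelled 21W28D. The separation of replicates 2 and 3 from S21D was small beside the drop in replicate 1, and CD79B did not pass (difference -2.21, adjusted p = 0.636 from limma). BTK, the kinase downstream of the receptor, was at 9.91 to 11.42 in S21D and at 5.59, 9.65 and 9.28. BLNK, the adaptor between them, was at 13.74 to 14.12 and at 12.27, 13.15 and 12.96. With S35D-labelled replicate 1 left out, the list median was -1.23 and none passed. FAM129C did not pass in any fit that left out 1 of the 7 arrays (adjusted p 0.0517 to 0.147 from limma). Without replicate 2 of 21W35D, in which CD79B was at 2.93, the differences were the same and the spread smaller, and BLNK and FCGR2B, an inhibitory Fc receptor, passed along with FAM129C (adjusted p = 0.0325 and 0.0407 for the added pair, from limma). Plasma cell genes did not move with them. JCHAIN, the joining chain of secreted antibody, was at 14.34 ± 0.16 and 14.32 ± 0.26, and 0 of 7 passed.

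Of 7 genes of the follicle and its stroma, 4 were lower in every array labelled S35D than in any S21D array, where 13.8% of all probe sets were. The median difference was -1.07, and only 4 of the 7 genes reached 4 log2 units in any of the 7 arrays. CXCL13, the chemokine that draws B cells into follicles, was at 14.18, 13.97, 14.39 and 13.78 in S21D and at 10.08, 12.53 and 12.38 in arrays labelled S35D. All 3 arrays were below all of S21D, replicate 1 by the most. The difference of -2.42 had a standard error of 1.86 (adjusted p = 0.558 from limma), which replicate 2 of 21W35D, at 3.28, widened. Without that array the standard error was 0.73 and the adjusted p 0.0636, and with S35D-labelled replicate 1 left out the difference was -1.63. CLU, clusterin, made by follicular dendritic cells among others, and LTB, the lymphotoxin that maintains them, differed by -2.73 and -2.04, with values of 6.80, 10.65 and 10.10 and of 7.83, 10.94 and 10.63 in arrays labelled S35D. None of the 7 follicle genes passed, and CD40LG and IL21 lay at the floor. GP2, the receptor by which M cells of the follicle epithelium take up bacteria, fell from 8.36, 7.93, 9.66 and 9.81 to 2.26, 5.81 and 5.38. Its difference of -4.46 (standard error 1.08, adjusted p = 0.0381 from limma) was the largest fall of a named gene past the test. A second probe set differed by -2.44 (adjusted p = 0.0578 from limma). GP2 was at 6.09, 7.38 and 6.90 in arrays labelled 21W28D and at 5.82, 2.26 and 5.56 in 21W35D, and with S35D-labelled replicate 1 left out it differed by -3.34 (adjusted p = 0.233 from limma). It passed in 2 of the 7 fits that left out 1 array. MFGE8, a bridge to apoptotic cells made by follicular dendritic cells and others, fell by 1.47 on the log2 scale.

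MHC class II genes, which present antigen to helper T cells, were lower as well. All 9 measured had a difference below 0 (median -1.16) and 8 of them lay wholly below S21D (13.8% of all probe sets did), yet none passed (for CD74 adjusted p = 0.0703 from limma). SLA-DOA, a chain of the B cell regulator of peptide loading, was at 4.12, 4.19, 6.26 and 5.08 in S21D and at 2.08, 2.69 and 2.69 in arrays labelled S35D, which is at the floor (difference -2.43, adjusted p = 0.0907 from limma). CD74, the invariant chain, was at 10.45 to 11.16 and at 7.89, 9.32 and 9.53. SLA-DRA, the chain of the main presenting molecule, was at 12.18 to 13.07 and at 11.31, 11.48 and 12.02. Class I and class II genes thus had opposite signs in the same arrays. Without replicate 2 of 21W35D, CD74, SLA-DQA1 and SLA-DQB1 passed (adjusted p = 0.0343, 0.0427 and 0.0384 from limma). Without replicate 1 of the arrays labelled S35D, the list median was -0.90 and none passed. In arrays labelled 21W28D, CD74 was at 10.31, 11.10 and 11.00.

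No gene of leukocyte adhesion and chemotaxis passed among 24, with a median of -0.61. Without replicate 1 of the arrays labelled S35D the median was -0.42, and again none passed. ICAM1, the ligand of leukocyte integrins, was at 9.79, 9.45, 9.79 and 9.74 in S21D and at 7.75, 8.22 and 7.83 in arrays labelled S35D. The gap between the groups was wide against the spread within them, and the difference of -1.76 had an adjusted p of 0.0784 from limma. Without replicate 2 of 21W35D, which was at 6.35, it was 0.00646. VCAM1, the ligand of the integrin α4β1, was at 13.64, 13.66, 13.98 and 13.36 and at 11.43, 12.32 and 12.48 (difference -1.58, adjusted p = 0.13 from limma, and 0.0418 without that array). MADCAM1, the vascular address of gut lymphocytes, differed by -1.13 (adjusted p = 0.167 from limma, and 0.0323 without it). VAV1, a signalling protein of leukocytes, was at 10.84 to 11.20 and at 8.69, 10.45 and 10.22 and did not pass either way (adjusted p = 0.349 and 0.194 from limma). With each of the 7 arrays left out in turn, ICAM1 differed by -1.90 to -1.67 and VCAM1 by -1.78 to -1.25. VAV1 differed by -1.53 to -0.65, and none of these genes passed in any of these fits. In arrays labelled 21W28D ICAM1 was at 8.50, 9.16 and 9.55, above all arrays labelled S35D and overlapping S21D, and VCAM1 at 12.42, 13.67 and 13.64. CCL28, which draws plasma cells to mucosa, had the highest difference of the list, 2.83, with no overlap (adjusted p = 0.112 from limma). In cell cycle genes, 30 of 31 differences were below 0 and the median was -0.58, and none passed.

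**Figure D4:**
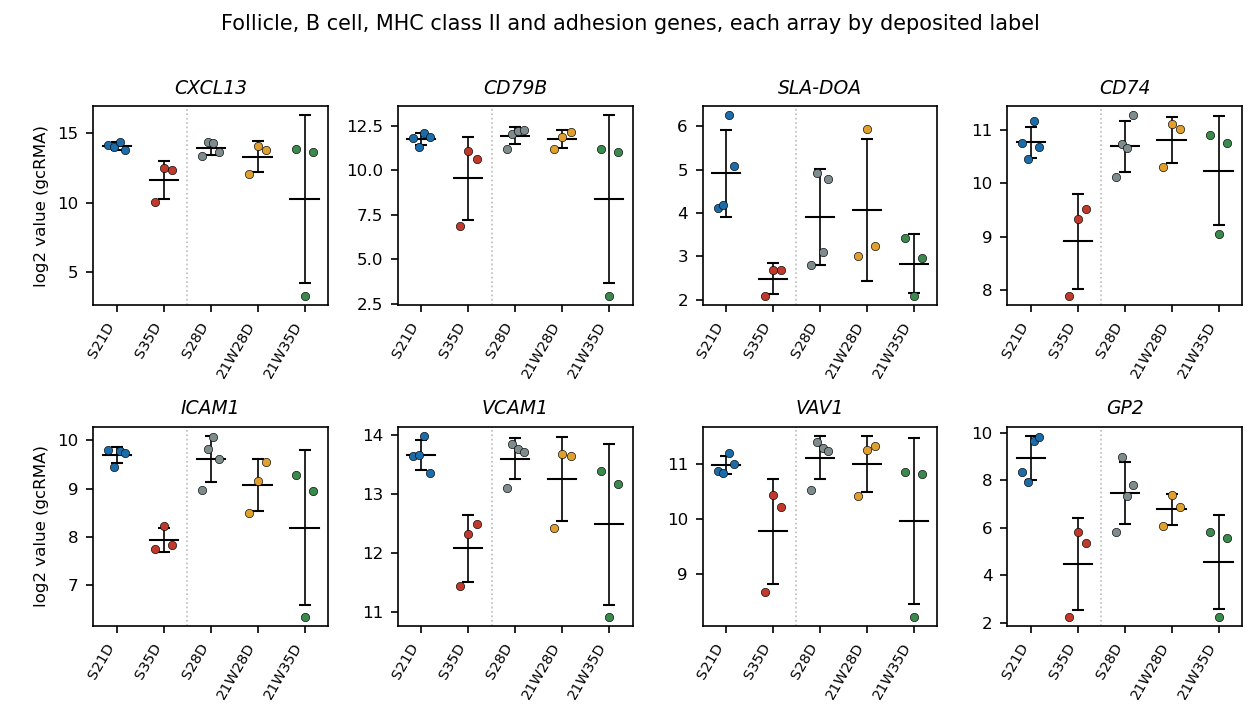
Log2 value of each array for genes of the follicle, B cells, MHC class II and adhesion, by deposited label (points, arrays; lines, group means; bars, 1 SD; each panel with its own scale). Replicate 1 of the arrays labelled S35D is the lowest of its group in all panels, and replicate 2 of 21W35D is far below the other 21W35D arrays in CXCL13 and CD79B.

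T cell genes did not follow B cell genes. The list median was 0.02 over 17 genes, 1 of which passed. Of the 17, 11 reached 4 log2 units in any of the 7 arrays. CD3G, a chain of the T cell receptor complex, rose from 7.02, 7.54, 7.58 and 6.95 to 7.79, 8.06 and 8.10 (difference 0.71, adjusted p = 0.0402 from limma). It was at 8.30, 8.73 and 8.56 in arrays labelled 21W28D and at 9.36, 8.91 and 9.32 in 21W35D. The level in arrays labelled S35D was lower than that of 21W35D (difference -1.21, adjusted p = 0.036 from limma). CD8A, the coreceptor of cytotoxic T cells, differed by 1.34, CD247, the zeta chain, by -1.96 and LCK, the proximal kinase, by -0.90, and none of these passed. The mean of the T cell markers CD2, CD3D and CD3E was 5.25 to 6.41 in S21D and 6.50 to 6.91 in arrays labelled S35D. GZMH, a granzyme of cytotoxic lymphocytes, rose from 5.62, 6.59, 6.83 and 7.05 to 9.03, 9.13 and 8.57 (difference 2.39, adjusted p = 0.0389 from limma). LYVE1, a marker of lymphatic vessels and of some macrophages, rose by 1.40.

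Outside these groups the largest falls of named genes were of varied function. UPK3A, a uroplakin of urothelium, fell from 5.84, 4.40, 8.62 and 7.68 to 2.08, 3.75 and 3.00. FABP7, the brain type fatty acid-binding protein, fell from 5.84, 5.30, 6.09 and 5.92 to 2.32, 2.39 and 2.39, near the floor (difference -3.42, standard error 0.36, adjusted p = 0.000412 from limma). In arrays labelled 21W28D it was at 2.85, 3.72 and 3.55, and in S28D piglets at 3.51 ± 0.84 (SD, n = 4), so that FABP7 was below its S21D level by either label. HS3ST3A1, a heparan sulfate sulfotransferase, fell by 3.12 on the log2 scale, RAMP1, a partner of the receptor for calcitonin gene-related peptide, by 2.89, and RARRES1, a retinoic acid-induced gene, by 1.95. MARCH7, a ubiquitin ligase, fell by 1.83 and ZNF697, a zinc finger gene, by 1.82. The last 2 and FABP7 passed whichever array was left out. B4GALT4, PMEPA1 and ABLIM1 fell by 1.77, 1.46 and 1.46.

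Of the 40 gene lists, those not described above had at most 1 member past the test in either direction. Brush border hydrolases (0 of 9), nutrient transporters (0 of 19), endocytosis and lysosome genes (0 of 27), myeloid genes (0 of 13) and fibroblast and matrix genes (0 of 21) had medians of 0.0, 0.12, 0.06, 0.0 and 0.01. Only 6 of the 9 brush border and 7 of the 13 myeloid genes reached 4 log2 units in any of the 7 arrays. Members at the floor hold such medians near 0. Smooth muscle genes had a median of 0.57, none passed, and with S35D-labelled replicate 3 left out the median was 0.0. DES, the intermediate filament of muscle, was at 4.66, 4.66 and 8.11 there. The reference genes ACTB and GAPDH were level, at 14.30 ± 0.23 and 14.20 ± 0.17 and at 14.20 ± 0.11 and 14.11 ± 0.10. Bile acid handling rested on ABCC2, 1 of 5 measured.

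**Figure D5:**
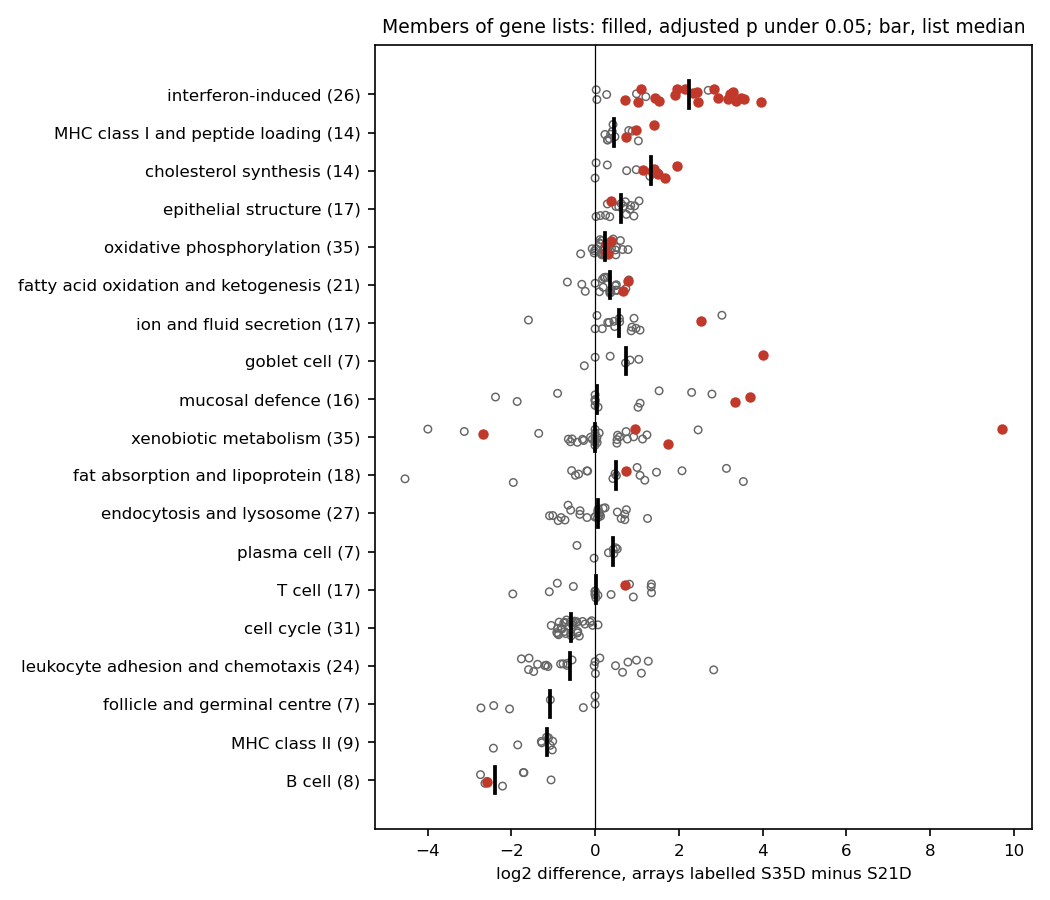
Difference between arrays labelled S35D and S21D (log2) of each measured member of 19 gene lists, with the number measured in brackets. Filled points passed at an adjusted p under 0.05, open points did not, and bars are list medians, which run from -2.40 for B cell genes to 2.23 for interferon-induced genes.

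With 4 and 3 piglets, the number of arrays limits the precision of every value. The p-values rest on the spread between piglets within every group of the series, not within S21D and S35D-labelled arrays alone. With only the S21D and S35D-labelled arrays in the fit, 23 of the 69 named probe sets past the test still passed. Of the 69 named probe sets past the test, 11 still passed without replicate 1 of the arrays labelled S35D. Those of ISG15, USP18, MX2, ZBP1, XAF1, DPEP1, GSTO1, FOS and DUSP6 were among the ones that did not. Whichever of the 7 arrays was left out, 11 passed. Like FAM129C, those of GZMH, ABCC2, RAMP1, INSIG1, HSD17B7 and CFD passed in none of these fits. DMBT1, C5, AQP1 and HS3ST3A1, among others, passed in 1 of the 7. Near the floor of the scale, where 41.6% of values lay within 1 unit of the lowest value of 2.084, differences are compressed, and 18 of the probe sets called higher and 6 of those called lower had their lower mean there.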

How the data were processed

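Ileal mucosal RNA of 1 piglet per array was hybridised to the Affymetrix GeneChip Porcine Genome Array. Values were deposited by the authors as log2 expression, 1 per probe set, after gcRMA background correction, normalization and summary. The base of 2 follows from the range of the values (2.084 to 16.41). GCOS 1.2 and GCRMA are the tools in the submitters' processing notes. Raw intensities were not used here.

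Of 24123 probe sets, 124 Affymetrix controls were left out. In the platform annotation 10069 of the tested probe sets had 1 gene symbol, 198 several and 13732 none, and 9961 matched a gene table of the pig reference. Array medians of the 7 arrays were 5.148 to 5.268. The median SD of probe sets with a mean over 5 was 0.195 in S21D and 0.226 in arrays labelled S35D.

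limma 3.58.1 (lmFit and eBayes, R 4.3.3) modelled the 20 arrays together by group, without covariates, with Benjamini-Hochberg adjustment over 23999 probe sets, after being tested on simulated data. Called probe sets differed by 2-fold or more with an adjusted p under 0.05. List members and named genes were judged on the adjusted p alone, adjusted over all probe sets. A gene in a list was its brightest probe set over all arrays. Named were the 15 largest rises and the 15 largest falls among called probe sets with 1 symbol, no overlap and every array of the higher group at 4 log2 units or more, the genes the study names, and up to 6 members of each list past the threshold (76 probe sets). Members that missed the test are given with values. The members, lists and rule were chosen with earlier results of these data known. Same-numbered arrays of both groups were checked for pairing (correlation of deviations -0.014, -0.245 and 0.223) and were not treated as pairs. Alternatives were a filter on dim probe sets, a floor at 4, other scalings, other variance models, the methods' t-test, each array left out and exchanged labels. Leaving out replicate 2 of 21W35D was chosen after seeing the data. Columns of values left unused numbered 0.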

Additional observations from a re-analysis of the deposited data

Results flagged for a closer look

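Among 116 values examined in the 4 S21D arrays (named probe sets and mean levels of lists), 6 had 1 array far from the others. Chance alone flags about 1 in 20, so that 6 of 116 is near that share. DMBT1 was at 8.28 in replicate 3 against 10.1 to 10.25 in the others. RARRES1 was at 9.94 in replicate 4 (others 10.61 to 10.74), ICAM1 at 9.45 in replicate 2 (others 9.74 to 9.79) and TJP1 at 2.5 in replicate 3 (others 2.53), the last near the floor. The mean level of MHC class II genes was 10.63 in replicate 3 (others 10.01 to 10.04), and that of erythrocyte genes 4.34 in replicate 1 (others 3.9 to 3.96). The group of 3 arrays labelled S35D is too small for this rule.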

How the results depend on the processing

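The counts called (307 higher, 75 lower) were 304 and 75 with an intensity trend and robust variance, 397 and 74 after median centring, and 309 and 67 after a further quantile normalization. They were 475 and 179 among probe sets of at least 4 units in at least 3 arrays, 464 and 155 with values below 4 set to 4, 541 and 316 with no fold minimum, 144 and 17 with 1 probe set per gene, and 120 and 28 with only both groups in the fit. The methods' t-test gave 708 and 615 without adjustment and 21 and 8 after Benjamini-Hochberg. With the replicate number as a block they were 110 and 21, and 28 of the 69 named probe sets past the test still passed. The numbers were not treated as pairs. Leaving out 1 of the 7 arrays gave 37 to 442 higher and 6 to 158 lower, the fewest without replicate 1 of the arrays labelled S35D and the most without their replicate 2. The other counts were 98 and 19, 230 and 48, 113 and 19 and 101 and 20 without S21D replicates 1 to 4, and 107 and 27 without replicate 3 of those labelled S35D. Leaving out replicate 2 of 21W35D, chosen after seeing the data, gave 446 and 225. No named probe set changed direction under these settings. With the labels S35D and 21W28D exchanged, 0 and 0 were called and 27 of 76 named probe sets changed direction, none of them past the test: IFIT2 at -0.035 (further probe set), DDX58 at -0.78 and -0.80, AREG at -0.77, RSAD2 at -0.86, MX2 at -0.80, ISG15 at -0.87, DMBT1 at -1.86, XAF1 at -0.49, ZBP1 at -0.29, IFIT1 at -0.59, USP18 at -0.61, SFTPD at -0.62, SAR1B at -0.0115, ABCC2 at -0.29, INSIG1 at -0.15, NSDHL at -0.0672, GSTO1 at -0.0527, PRDX1 at -0.0666, NDUFC2 at -0.024, FOS at -0.53, DUSP6 at -0.33, LYVE1 at -0.57, ABLIM1 at 0.15, GAPDH at 0.0412, VAV1 at 0.0278 and PKM at 0.23. Which labels are right was not tested. Low signal limits changes near the floor.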

Other observations

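A few genes were high in some S21D piglets and at the floor in all arrays labelled S35D. APOC2, the apolipoprotein that activates lipoprotein lipase, was at 3.09, 2.08, 10.46 and 10.85 in S21D replicates 1 to 4, and at 2.08, 2.08 and 2.09 in arrays labelled S35D. CBR1, a carbonyl reductase, was at 4.77, 2.08, 9.23 and 8.22 and at 2.08 in all 3. The same S21D replicates 3 and 4 were the higher ones in UPK3A and in SLPI, which was at 10.11, 9.94, 12.91 and 13.25. In SLPI the arrays labelled S35D were above all 4 (14.19, 13.31 and 14.08). None of APOC2, CBR1 and SLPI passed (adjusted p = 0.147, 0.0753 and 0.211 from limma), and they were picked after their values were seen.

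Some absorption genes had large differences with wide spread. APOA4, an apolipoprotein of chylomicrons, was at 6.53 to 8.26 in S21D and at 11.26, 10.08 and 10.67 in arrays labelled S35D, and SLC2A2, the basolateral glucose transporter, at 4.18 to 6.19 and at 9.27, 6.40 and 7.98. Neither passed (adjusted p = 0.199 and 0.186 from limma). AQP8, a water channel, was at 9.35 to 10.25 and at 12.37, 13.32 and 13.34 (adjusted p = 0.0563 from limma).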
